A study of Mus musculus with 7 samples.

Results

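The genes described here are the aminoacyl-tRNA synthetases of the mouse, with the scaffold genes Aimp1 and Aimp2, in RNA-seq of B-cell precursor (BCP) cells from Eμ-Ret mice. They were chosen by name, as cytosolic and mitochondrial enzymes and 2 scaffolds of the multi-synthetase complex. All 38 listed genes were found among the 24341 genes of the expression table, and all 38 passed the filter on low values, an FPKM sum over the samples of at least 10. FPKM is a fragment count scaled by transcript length and by library depth. By role, 8 were cytosolic enzymes of the multi-synthetase complex, 2 were its scaffolds, 12 were cytosolic enzymes outside it and 16 were mitochondrial enzymes.

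Both groups of mice were hemizygous for the Emu-Ret transgene on a BALB/c background, in which an immunoglobulin heavy chain enhancer drives an activated Ret fusion in B-lineage cells. BCP cells were sorted from spleen, and the cells are described as BP-1+. The study's RNA-seq methods do not mention sorting. For its in vitro work, the study states that leukemic spleen cells mostly went without enrichment. Preleukemic samples numbered 4 and came from young, healthy mice. Leukemic samples numbered 3 and came from older, moribund mice with overt disease. All mice carried the transgene, no transgene-negative mice were included, and age and disease cannot be told apart in this design.

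An aminoacyl-tRNA synthetase joins an amino acid to its tRNA, the step that sets the meaning of each codon in protein synthesis. The cytosolic enzymes charge tRNAs for the ribosomes of the cytoplasm, some of them bound together in the multi-synthetase complex. A largely separate set, encoded in the nucleus, charges the tRNAs of mitochondria, where the few proteins of the mitochondrial genome are made. The mitochondrial genes listed here include none for glycine or lysine. Gars and Kars are counted as cytosolic by their listing, and a part in mitochondria is not set apart. Many cytosolic synthetase genes are targets of ATF4, the transcription factor of the amino acid response, which binds the C/EBP-ATF response element (CARE).

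Promoter windows from RefSeq (GRCm38.p6, 250 bases before to 50 bases after a start site) were found for 28 of the 38 genes, in 30 windows. The CARE letters TGATGNAA, searched on both strands, were in 5 windows (16.7%), against 3.97% of all windows and 2.16% of the windows of genes tested. The 5 genes were Aars, Gars, Iars, Tars and Yars, cytosolic enzymes for alanine, glycine, isoleucine, threonine and tyrosine. Their sequences are shown because these genes belong to the known ATF4 targets whose levels are followed below. A single stretch is given for each gene, of 30 bases of the gene's own strand, 5′ to 3′, with the matched letters in capitals. The stretches are at chr8:111033840-111033869 (Aars, + strand), chr6:55037960-55037989 (Gars, +), chr13:49682126-49682155 (Iars, +), chr15:11399655-11399684 (Tars, -) and chr4:129189895-129189924 (Yars, +).
Aars: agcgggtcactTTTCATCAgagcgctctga
Gars: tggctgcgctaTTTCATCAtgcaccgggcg
Iars: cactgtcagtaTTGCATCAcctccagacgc
Tars: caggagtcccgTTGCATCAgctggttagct
Yars: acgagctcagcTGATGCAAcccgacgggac

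The letters CGGAAG, the core of a binding site of ETS factors, were in 16 of the 30 windows (53.3%), against 16.9% of all windows and 33.1% of those of genes tested. The E-box CACGTG was in 5 (16.7%), against 7.15% and 10.4%. Among the genes that rose in leukemic samples, a window was found for Qars only. Its 250 bases before the start site (chr9:108507755-108508004, GRCm38.p6, + strand, 5′ to 3′) are shown with the CGGAAG letters in capitals, and no CARE letters were in its window.
Qars: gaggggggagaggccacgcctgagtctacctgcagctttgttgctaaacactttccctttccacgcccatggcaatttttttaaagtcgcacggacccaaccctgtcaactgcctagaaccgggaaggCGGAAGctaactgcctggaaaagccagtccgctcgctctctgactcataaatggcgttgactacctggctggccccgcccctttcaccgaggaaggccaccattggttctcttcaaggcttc

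The depth, read from the steps of low values, was 13.7 to 16.4 M fragments a sample. FPKM values summed to between 507355 and 539887 in leukemic and between 448022 and 471447 in preleukemic samples. All 10 B-cell precursor markers were detected, with a summed level of 3064 to 4447 FPKM in leukemic and 5935 to 7405 in preleukemic samples, and 4 were called lower. Summed markers of red cell precursors, macrophages, neutrophils and plasma cells were higher in every leukemic than in any preleukemic sample. The 14 red cell precursor markers summed to 5647 to 26225 FPKM in leukemic samples, to 2796 in preleukemic replicate 1 and to 421 to 444 in the other 3, with Hbb-bs at the floor of the table in every sample, and 13 of 13 tested were called higher. Macrophage markers summed to 50.3 to 243 against 14 to 24.4, and neutrophil markers to 1409 to 1749 against 148 to 863. T and NK cell markers summed to 24.7 to 76.5 against 21.2 to 26.9, which overlapped. Plasma cell markers summed to 208 to 254 against 140 to 150. Called higher were 6 of 10 macrophage, 3 of 9 neutrophil, 0 of 7 T and NK cell and 1 of 4 plasma cell markers tested. Cycling cell markers summed to 940.0 to 1562 against 650 to 1079, which overlapped, and 1 of 10 was called higher, with a median log2 fold change of 0.52. Their part in the results on the synthetase genes was not tested. In bulk samples, fewer cells of a type and less RNA per cell cannot be told apart.

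Synthetase genes were expressed in every sample, and the cytosolic enzymes stood above the mitochondrial ones. Mean FPKM over the 7 samples ran from 2.22 for Ears2, the mitochondrial glutamyl-tRNA synthetase, to 119 for Vars, the cytosolic valyl-tRNA synthetase. The median was 51.2 for the 20 cytosolic enzymes and 11.7 for the 16 mitochondrial ones. The next highest after Vars were Kars, the lysyl enzyme, at 91.6 and Gars, the glycyl enzyme, at 86.9.

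**Figure D1:**
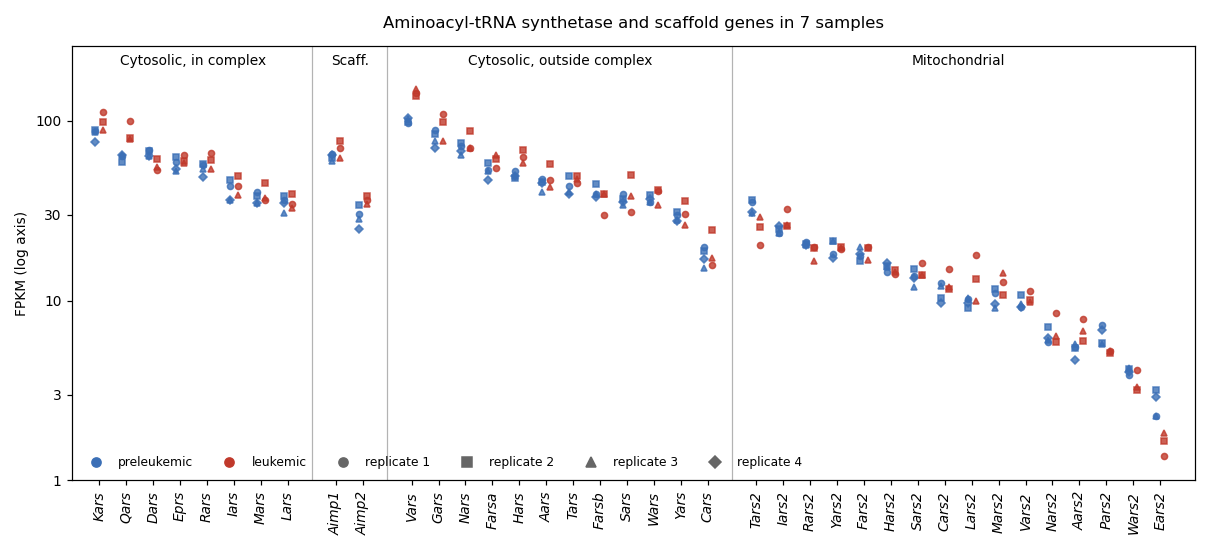
FPKM of each of the 38 genes in each of the 7 samples (log axis), by role, with preleukemic samples in blue, leukemic samples in red and a marker shape per replicate number. Vars is the highest cytosolic enzyme in all 7 samples, and the mitochondrial enzymes run from Tars2 (mean 29.8 FPKM) down to Ears2 (mean 2.22 FPKM).

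Kars measured 113, 99.3 and 89.4 FPKM in leukemic replicates 1 to 3, against 88.0, 89.3, 86.6 and 75.9 in preleukemic replicates 1 to 4. All 3 leukemic values were above the preleukemic ones, the nearest by a narrow margin, and the log2 fold change was 0.24 (standard error, SE, 0.10, limma adjusted p = 0.154). Gars had 109, 99.2 and 77.3 against 89.5, 84.3, 77.6 and 71.0 FPKM. The groups overlapped, with leukemic replicate 3 below 3 of the 4 preleukemic samples, and the log2 fold change was 0.23 (SE 0.14, limma adjusted p = 0.269).

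Of the 38 genes, 3 rose in leukemic samples and none passed the test as lower (limma on log2(FPKM + 1), adjusted p under 0.05 over 10541 genes). The risen genes were Vars, Qars and Hars, all cytosolic. The share called higher was 7.89%, against 8.47% of all genes tested, and 6.26% of all genes were called lower, so the count of risen genes was near the background. At an unadjusted p under 0.05 there were 8 of the 38 genes (21.1%), against 34.0% of all genes tested. The leukemic values lay wholly above the preleukemic ones in 6 genes and wholly below in 5, or 28.9% of the 38, against 32.0% of all genes. The median log2 fold change was 0.11 for the 38 genes and -0.02 for all genes, and 30 of the 38 had a change above 0.

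The direction of 18 of the 38 changes was turned by rescaling, which divides every value of a sample by 1 number, and that of 1 by quantile normalization. With every sample rescaled to the same FPKM sum, the median of all genes moved to -0.18 and that of the 38 genes to -0.05, and 12 of the 38 had a change above 0. Against all genes, the 38 genes were shifted by 0.13 as deposited, rescaled and with quantile normalization alike. After rescaling, Vars was the 1 gene called higher (686 of all genes, 6.51%), and Dars, Ears2, Pars2, Rars2 and Tars2 were called lower (2231 of all genes, 21.2%). As deposited, 893 of all genes were called higher and 660 lower. With quantile normalization these were 754 and 907, and Dars (8.6% of all genes lower) joined the 3 risen genes (7.15% higher). The 38 genes summed to 1417 to 1573 FPKM in leukemic and 1289 to 1405 in preleukemic samples, with no overlap. As a share of all FPKM they held 0.279% to 0.300% and 0.274% to 0.314%, which overlapped.

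**Figure D2:**
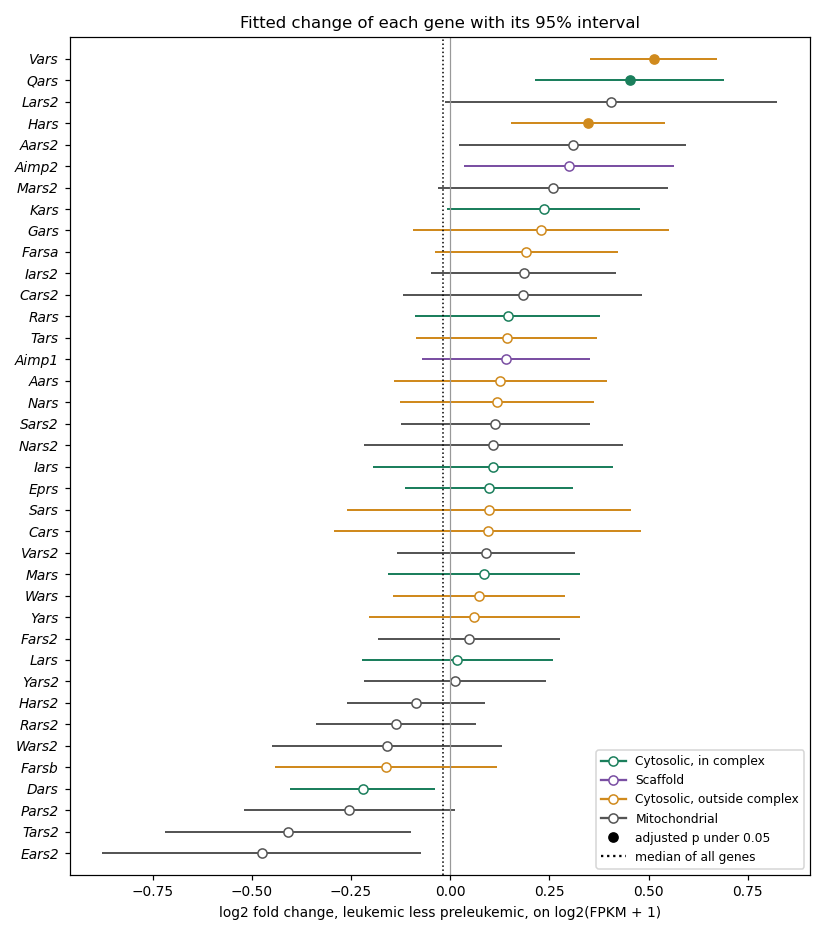
Fitted log2 fold change of each of the 38 genes (leukemic less preleukemic, on log2(FPKM + 1) as deposited), with its 95% interval, coloured by role. Filled points mark Vars, Qars and Hars, the 3 genes with an adjusted p under 0.05, and the dotted line is the median of all genes at -0.02.

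Vars showed the largest rise. The gene (chromosome 17, 35000906 to 35016329, mm10) reached 144, 139 and 150.1 FPKM in leukemic replicates 1 to 3, against 97.0, 98.6, 103 and 104 in preleukemic replicates 1 to 4. Both groups were tight and far apart, with means of 144 ± 5.75 (SD, n = 3) and 101 ± 3.34 (SD, n = 4). The log2 fold change was 0.51 (SE 0.07, limma adjusted p = 0.010). Vars stayed past the threshold without any 1 of the 7 samples, with an adjusted p from 0.0118 to 0.0454.

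Qars encodes the glutaminyl enzyme of the multi-synthetase complex (chromosome 9, 108508004 to 108515941). It had 100.4, 80.6 and 79.8 FPKM in leukemic samples against 63.7, 58.7, 64.3 and 65.0 in preleukemic samples. The leukemic samples were all higher, with replicate 1 above the other two, and the log2 fold change was 0.45 (SE 0.10, limma adjusted p = 0.0283). The call did not hold without preleukemic replicate 1, 2, 3 or 4, where the adjusted p was 0.0618, 0.0739, 0.0781 and 0.0814, or after rescaling (adjusted p = 0.0770).

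Hars encodes the cytosolic histidyl enzyme (chromosome 18, 36766527 to 36783205). It had 63.3, 69.4 and 58.6 FPKM in leukemic and 52.4, 47.9, 49.6 and 49.2 in preleukemic samples. The groups did not overlap, and the log2 fold change was 0.35 (SE 0.08, limma adjusted p = 0.0331). The call was lost without any 1 sample except leukemic replicate 3, at adjusted p of 0.0532 and 0.0629 without leukemic replicates 1 and 2 and from 0.0572 to 0.101 without 1 preleukemic sample, and after rescaling (adjusted p = 0.102). Hars2, the mitochondrial histidyl enzyme, starts next to Hars on the other strand and had a log2 fold change of -0.09 (SE 0.07, limma adjusted p = 0.427). The annotation has the 2 genes overlap at their starts, and whether fragments were counted by strand is not given in the sources used here.

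In the multi-synthetase complex, 1 of 8 enzymes (Qars, 12.5%) passed the test, against 14.7% of all genes tested. The median log2 fold change of the 8 was 0.10. Dars, the aspartyl enzyme, was the 1 gene of the 8 with a change below 0. Its values were 53.3, 61.1 and 55.6 FPKM in leukemic and 68.5, 68.1, 63.8 and 64.1 in preleukemic samples, with every leukemic value below (log2 fold change -0.22, SE 0.08, limma adjusted p = 0.0932). The listed scaffolds Aimp1 and Aimp2 help to hold the complex together. They had log2 fold changes of 0.14 and 0.30, and neither passed the test (limma adjusted p = 0.299 and 0.109). Aimp2 had 36.4, 38.4 and 34.4 FPKM against 30.3, 34.1, 28.6 and 25, with no overlap but with leukemic replicate 3 just above preleukemic replicate 2. Aimp2 overlaps Eif2ak1 on the other strand.

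Of the 12 cytosolic enzymes outside the complex, 2 passed the test (Vars and Hars, 16.7%), against 14.7% of all genes tested. Their median log2 fold change was 0.12. Farsb was the 1 gene of the 12 with a change below 0 (-0.16, SE 0.12, limma adjusted p = 0.359). It encodes the beta subunit of phenylalanyl-tRNA synthetase, and Farsa, which encodes the alpha subunit of the same enzyme, had a change of 0.19 (SE 0.10, limma adjusted p = 0.205). The ratio of Farsa to Farsb within a sample, which dividing a sample by 1 number cannot move, was 1.84, 1.57 and 1.66 in leukemic samples and 1.36, 1.3, 1.34 and 1.25 in preleukemic samples. All 3 leukemic ratios were higher. Farsb overlaps Sgpp2 on the other strand, and its listed locus runs beyond the annotated gene.

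By enzyme class, the unrelated folds of the catalytic domain, 2 of 18 class I enzymes passed the test (Vars and Qars). Of 17 class II enzymes 1 passed (Hars). These shares were 11.1% and 5.88%, against 14.7% of all genes tested, and the median log2 fold changes were 0.09 and 0.11. Eprs, which holds a domain of each class in 1 chain, had a change of 0.10 (SE 0.09, limma adjusted p = 0.461).

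Of the 16 mitochondrial enzymes none passed the test in either direction, and the median log2 fold change was 0.07. An unadjusted p under 0.05 was found in 3 (18.8%), against 34.0% of all genes tested. Their summed level was 206 to 227 FPKM in leukemic and 206 to 218 in preleukemic samples. Leukemic values lay wholly above in Aars2 and wholly below in Ears2, Tars2, Pars2 and Rars2, or 31.2% of the 16, against 32.0% of all genes.

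Ears2 had the lowest log2 fold change of the 38 genes. It had 1.38, 1.66 and 1.84 FPKM in leukemic and 2.27, 3.21, 2.28 and 2.89 in preleukemic samples, with a log2 fold change of -0.47 (SE 0.17, limma adjusted p = 0.10). The leukemic samples were all lower, at about 43.1 fragments in the lowest, and the added 1 shrinks the change of a gene at this level. Ears2 lies on chromosome 7 (122034161 to 122067086) and overlaps Ubfd1 on the other strand.

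Tars2, the mitochondrial threonyl enzyme (chromosome 3, 95739973 to 95754977), had 20.5, 25.6 and 29.3 FPKM in leukemic and 35.5, 36.2, 30.6 and 31.3 in preleukemic samples. The leukemic samples were lower throughout, with replicate 3 close to the preleukemic range, and the log2 fold change was -0.41 (SE 0.13, limma adjusted p = 0.0766). Without leukemic replicate 3 it was -0.52 and passed the test (adjusted p = 0.0458). Pars2, the prolyl enzyme (chromosome 4, 106651068 to 106655282), had 5.28, 5.09 and 5.22 FPKM against 7.31, 5.80, 5.75 and 6.84. The leukemic values were close together and all lower (log2 fold change -0.25, SE 0.11, limma adjusted p = 0.158).

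Lars2, the mitochondrial leucyl enzyme (chromosome 9, 123366939 to 123462664), had the next largest log2 fold change after Vars and Qars. It had 18.0, 13.3 and 9.90 FPKM in leukemic and 10.2, 9.07, 10.4 and 9.74 in preleukemic samples. Leukemic replicate 3 lay within the preleukemic range and replicate 1 far above it, and the log2 fold change was 0.41 (SE 0.18, limma adjusted p = 0.155). Without leukemic replicate 3 it was 0.60 and passed the test (adjusted p = 0.0420).

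Cytosolic and mitochondrial enzymes for the same amino acid were set side by side in 16 pairs, with Eprs, the enzyme for both glutamate and proline, used for Ears2 and Pars2, and Farsa for Fars2. The cytosolic gene had the higher FPKM in every sample of all 16 pairs. The ratio lay wholly higher in leukemic samples in 7 pairs (those of Ears2, Vars2, Pars2, Wars2, Hars2, Rars2 and Tars2) and wholly lower in none. Apart from the pair of Wars2, each of the 7 holds a gene whose own values did not overlap. These are Vars and Hars above, and Ears2, Pars2, Rars2 and Tars2 below, so the ratios partly restate them. No test was run on the ratios, and 2 of the pairs share Eprs. The same count was not made for ratios of other genes, so the 7 pairs have no background here. Of single genes, 32.0% had groups that did not overlap, in either direction.

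Eprs over Ears2 was 47.1, 36.1 and 31.9 in leukemic and 26.0, 19.7, 23.1 and 18.6 in preleukemic samples. Tars over Tars2 was 2.22, 1.93 and 1.62 against 1.22, 1.36, 1.32 and 1.25. In both pairs leukemic replicate 1 was highest and replicate 3 lowest of the leukemic samples. Lars over Lars2 was lower in leukemic replicates 1 and 2 than in any preleukemic sample, at 1.91, 2.97 and 3.33 against 3.57, 4.22, 2.98 and 3.60, and replicate 3 lay within the preleukemic range.

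**Figure D3:**
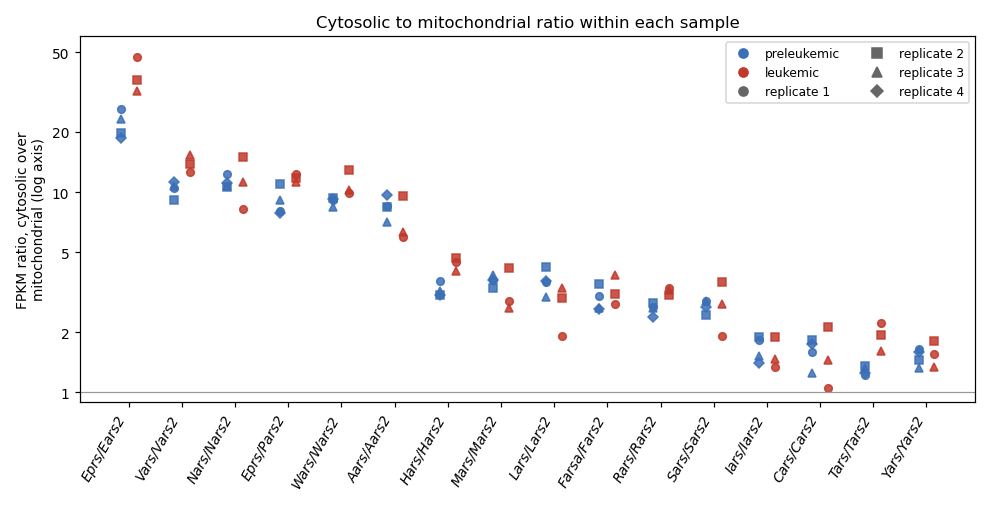
Ratio of the FPKM of the cytosolic gene to that of the mitochondrial gene for the same amino acid in each sample (log axis), with preleukemic samples in blue, leukemic samples in red and a marker shape per replicate number. All ratios are above 1, and in 7 of the 16 pairs the leukemic ratios all lie above the preleukemic ones. Ratios of other genes were not counted for a background.

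Chromosomes 9, 12, 14, 15 and 17 were taken as a set because extra copies of them occur in leukemia of this strain. The study also found extra copies of these chromosomes in preleukemic cells, so such gains are not particular to leukemia. The set holds 7 of the 38 genes (Qars and Lars2 on 9, Wars on 12, Tars on 15, and Vars, Aars2 and Vars2 on 17). All 7 had a log2 fold change above 0, with a median of 0.31, and 2 passed the test (Vars and Qars). Of all genes on these chromosomes, 15.5% were called higher. Of the 31 other synthetase genes 1 passed (Hars), with a median of 0.10, and 6.49% of all genes on other chromosomes were called higher.

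On chromosome 17 the median gene had a log2 fold change of 0.35, and 199 of its 592 genes tested (33.6%) were called higher and 3 lower. Vars was 0.17 above that median, and 30.2% of the genes of chromosome 17 had a larger change. Aars2 (0.31) was close to the median and Vars2 (0.09) was 0.26 below it, at 77.4% of genes with a larger change, so genes of 1 chromosome differed. On chromosome 9 the median was 0.22 and 78 of 596 genes (13.1%) were called higher. Qars was 0.23 above it, with 24.8% of the genes of that chromosome larger, and Lars2 0.18 above it.

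The shift of each chromosome in each sample was also measured as the median deviation of its genes from the preleukemic mean, less that of all genes. Chromosome 17 was at 0.35, 0.35 and 0.40 in leukemic replicates 1 to 3 and between -0.05 and 0.09 in preleukemic samples. Chromosome 9 was at 0.32, 0.28 and 0.09 in leukemic samples, and between -0.05 and 0.08 in preleukemic samples. The highest preleukemic values, 0.09 on chromosome 17 and 0.08 on chromosome 9, were both those of replicate 3. On chromosome 14 preleukemic replicate 3 was at 0.12, against -0.07, -0.09 and 0.15 in leukemic replicates 1 to 3. Chromosome 15 was at -0.05, -0.02 and 0.21 in leukemic replicates 1 to 3, and chromosome 12 at -0.04, -0.01 and -0.06. In preleukemic samples both were between -0.02 and 0.01. The copy number of these chromosomes in the 7 samples was not tested. Hars was 0.41 above the median of chromosome 18 (-0.07), where 14.1% of genes had a larger change.

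**Figure D4:**
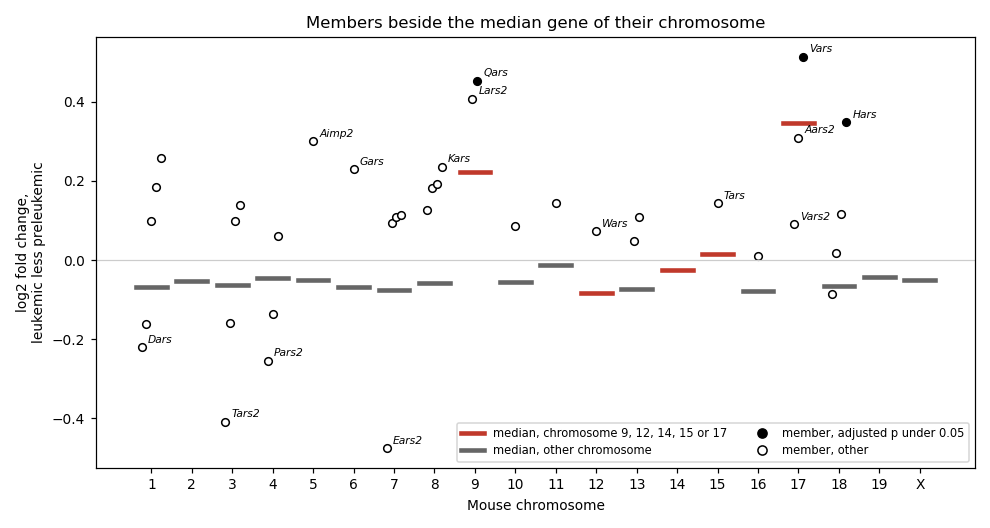
Log2 fold change (leukemic less preleukemic) of the 38 genes as points at their chromosome, filled where the adjusted p was under 0.05, with a bar at the median of all genes tested on that chromosome. The bars of chromosomes 17 (0.35) and 9 (0.22) stand above the others, which lie between -0.08 and 0.02.

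The 13 cytosolic genes known as ATF4 targets all had a log2 fold change above 0, with a median of 0.10. Of the 13, 1 (Vars, 7.69%) passed the test, against 14.7% of all genes tested. After rescaling 2 of the 13 stayed above 0, and with quantile normalization 12 did. Against the median of all genes, that of the 13 was higher by 0.12 as deposited, 0.12 with quantile normalization and 0.11 rescaled. Their levels differed more among the leukemic samples than between the groups. The median deviation of the 13 from the preleukemic mean on the log2 scale was 0.08, 0.28 and -0.02 in leukemic replicates 1 to 3 and 0.05, 0.09, -0.09 and -0.05 in preleukemic replicates 1 to 4. Leukemic replicate 2 stood above the rest, and leukemic replicate 3 lay within the preleukemic range.

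Leukemic replicate 2 had the highest leukemic value in 10 of the 13 genes (76.9%) and in 13 of the 20 cytosolic enzymes (65%), against 31.9% of all genes tested. Sars, the seryl enzyme, had 31.0, 49.8 and 38.2 FPKM in leukemic and 39.1, 36.6, 34.1 and 35.6 in preleukemic samples. Cars, the cysteinyl enzyme, had 15.8, 24.6 and 17.3 against 19.8, 19, 15.1 and 17. In both genes leukemic replicate 2 was the highest of all 7 samples and leukemic replicate 1 was below most preleukemic samples. In 4 of the 5 genes with CARE letters (Aars, Iars, Tars and Yars) leukemic replicate 2 was the highest leukemic sample, and in Gars it was replicate 1. Among the mitochondrial enzymes leukemic replicate 1 was highest in 11 of 16 (68.8%), against 37.0% of all genes.

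Of 28 genes of the amino acid stress response (the sensor kinase gene Eif2ak4, Atf4 and its targets), 23 were tested, and leukemic replicate 2 was the highest leukemic sample in 16 (69.6%). Asns, the asparagine synthetase, was singled out after its values were seen. It had 10.3, 49.7 and 21.4 FPKM in leukemic and 12.1, 9.65, 7.71 and 7.18 in preleukemic samples (log2 fold change 1.23, SE 0.46, limma adjusted p = 0.110). Leukemic replicate 2 was the highest and replicate 1 within the preleukemic range. The same replicate had the largest FPKM sum (539887) and the highest summed red cell precursor (26225), macrophage (243) and T and NK cell (76.5) markers of the leukemic samples, and replicate 1 the highest summed cycling cell markers (1562, against 1181 and 940.0). Their part in the pattern was not tested.

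**Figure D5:**
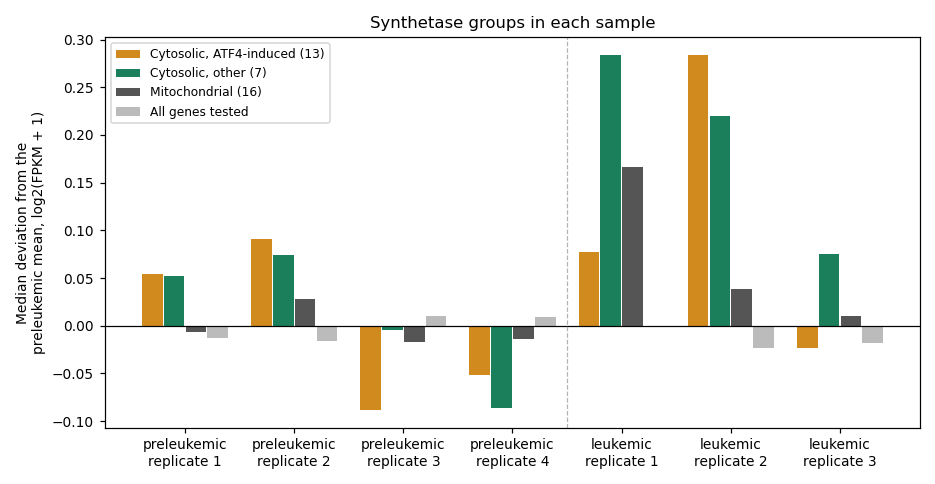
Median deviation from the preleukemic mean on the log2(FPKM + 1) scale in each sample, for the 13 cytosolic ATF4 targets, the 7 other cytosolic enzymes, the 16 mitochondrial enzymes and all 10541 genes tested. Leukemic replicate 2 has the highest bar for the ATF4 targets (0.28), and leukemic replicate 1 for the mitochondrial enzymes (0.17).

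The 38 genes also varied more within the leukemic than within the preleukemic group. The SD on the log2 scale was larger among leukemic samples in 28 of the 38 genes (73.7%), against 73.8% of all genes tested, so the synthetase genes did not stand apart in this. Within the preleukemic group, replicate 2 was highest in 19 of the 38 genes (50%), against 27.0% of all genes.

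Other genes of the tRNA pathway were followed in 5 lists. The first held 11 genes, namely factors that deliver charged tRNA to the ribosome or move it along, their regulators and Eef1e1. Of these 11, 4 were called higher and 1 lower, with a median log2 fold change of 0.18, against 8.47% and 6.26% of all genes. With quantile normalization 1 was called higher and 2 lower (7.15% and 8.6% of all genes), and after rescaling 2 and 2 (6.51% and 21.2%). Eef1b2, the exchange factor that reloads elongation factor 1A with GTP, had 511, 508 and 563 FPKM in leukemic and 381, 351, 365 and 367 in preleukemic samples. Its values did not overlap (log2 fold change 0.53, SE 0.07, limma adjusted p = 0.010), though with quantile normalization the call was lost (adjusted p = 0.0621). Eef2k, the kinase that inhibits elongation factor 2, had 29.1, 34.2 and 23.4 FPKM against 51.2, 49.9, 49.8 and 57.8. It fell by 0.85 on the log2 scale (SE 0.13, limma adjusted p = 0.0136), with every leukemic value below, and the call was lost without preleukemic replicate 4 (adjusted p = 0.0547).

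Of 47 genes tested for tRNA processing, modification and export, 4 (8.51%) were called higher, against 8.47% of all genes, and none lower, with a median of 0.06. After rescaling 3 were called higher and 4 lower (6.51% and 21.2% of all genes), with a median of -0.10. Rpp21, a protein of the ribonuclease P that trims tRNA precursors, rose by 0.71 (SE 0.18, limma adjusted p = 0.0438), and the call was lost without any 1 sample, with an adjusted p from 0.0533 to 0.0921, with no filter (0.0615) and with array weights (0.105). Wdr4, a partner of the tRNA methyltransferase Mettl1, rose by 0.62 (SE 0.14, limma adjusted p = 0.0285), with the call lost without leukemic replicate 3 (0.0595), preleukemic replicates 1, 3 and 4 (0.0678, 0.0784 and 0.0841) and after rescaling (0.0580). Of 23 genes of RNA polymerase III, which transcribes tRNA genes, 1 (4.35%) was called higher, against 8.47% of all genes, and the median was -0.06. It was the subunit gene Polr1c, which RNA polymerase I shares (0.69, SE 0.08, limma adjusted p = 0.00864). After rescaling 1 was called higher and 3 lower (6.51% and 21.2% of all genes). Rpp21, Wdr4 and Polr1c all lie on chromosome 17.

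Of 13 genes of proofreading and of the mitochondrial amidotransferase, none passed the test in limma or had an unadjusted p under 0.05, and the median was 0.09. Of the 23 stress response genes tested, 5 were called higher, against 8.47% of all genes, and none lower, with a median of 0.15. After rescaling 5 were called higher and 2 lower (6.51% and 21.2% of all genes), with a median of -0.0062. Atf4 had 130, 212 and 185 FPKM in leukemic and 177, 189, 164 and 173 in preleukemic samples, and the groups overlapped (log2 fold change -0.03, limma adjusted p = 0.921). Of the 23, 13 had a change above 0 as deposited and 10 below it. Those below included Ddit3, Trib3, Chac1, Atf5 and Slc38a2, none of them called as deposited. The 5 called genes were Cebpb, Ppp1r15a, Ddit4, Slc7a5 and Slc3a2. Cebpb, a transcription factor also abundant in macrophages and neutrophils, rose by 2.42 (SE 0.31, limma adjusted p = 0.00960). Ppp1r15a, the phosphatase subunit that restores translation after stress, rose by 2.15 (SE 0.40, limma adjusted p = 0.0191), and the call was lost without preleukemic replicates 2, 3 and 4 (0.0536, 0.0580 and 0.0695). Slc7a5 and Slc3a2 encode the 2 chains of a transporter of large neutral amino acids.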

How the data were processed

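RNA-seq of BCP cells gave 1 table of FPKM values that the authors deposited, with a floor of 0.01. STAR 2.5.0b, Cufflinks 2.2.1, bedtools 2.17.0, Bowtie, DESeq2 and mm10 are named in the submitters' processing notes, and libraries were stranded. FPKM is not a count, so no count model was used.

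A filter on the FPKM sum over samples (10 or more) left 10541 genes. Their log2(FPKM + 1) values were fitted in limma 3.58.1 (intensity trend, no covariates), with Benjamini-Hochberg adjustment over all of them and a threshold of 0.05. A fold change on this scale understates that of low genes. The design text gives 4 and 3 mice for the 4 and 3 samples, without tying a sample to a mouse. Depth came from the steps of low values, of which 76.9% to 83.8% were whole within 0.1. Depth and fragment length were chosen to make this share largest. The 20% that chance gives holds for a setting fixed beforehand, so it is not a matched background. Alternatives were a pseudocount of 0.1, no filter, a sum of at least 70, rescaling to equal FPKM sums, quantile normalization, array weights, the replicate number as a block, and leaving out each sample with the genes kept.

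Members, lists and tests were chosen with earlier results of these data known. Values and fits are given for members past the threshold, the 3 largest rises and falls and the 3 highest levels, and of each pathway list for at most 2 called genes; Asns, Atf4 and other members named beside them illustrate a group. Promoters are from RefSeq (GRCm38.p6, C57BL/6J, not BALB/c), and some promoter sequence is not reported here. On simulated data for the 10541 genes the fit was tested at known changes. Python 3.11.15, pandas 2.3.3 and matplotlib 3.10.9 were used.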

Additional observations from a re-analysis of the deposited data

Results flagged for a closer look

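The summed level of the 14 red cell precursor markers in the preleukemic group had 1 sample far from the others. Preleukemic replicate 1 had 2796 FPKM, and its gap to the next sample was 0.99 of the range of the 4 samples. The smaller gap that Dixon's 95% critical value sets is passed by chance in about 1 of 20 groups, and 62 groups of values were examined. In this sample Vars (97.0 FPKM) and Qars (63.7) were close to the nearest other preleukemic sample, at 98.6 and 64.3. Hars (52.4) was the highest of the 4 samples, with the others at 47.9, 49.6 and 49.2.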

How the results depend on the processing

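A pseudocount of 0.1, no filter and array weights left Vars, Qars and Hars called, as did a filter on an FPKM sum of at least 70, where 951 genes were called in all. Rescaling to equal FPKM sums called 2917 genes, with 1 of the 38 synthetase genes higher and 5 lower. It turned the log2 fold change of 18 genes to below 0, namely Lars and Yars2 (both -0.15), Fars2 (-0.11), Yars (-0.10), Wars (-0.090), Mars (-0.077), Eprs (-0.065), Cars (-0.065), Sars (-0.065), Vars2 (-0.064), Iars (-0.055), Nars (-0.047), Sars2 (-0.043), Nars2 (-0.038), Aars (-0.037), Aimp1 (-0.024), Rars (-0.019) and Tars (-0.019), none of them called. Rescaling divides every value of a sample by 1 number, and leukemic samples had the larger sums. Quantile normalization called 1 gene lower and turned Lars (-0.019), and array weights turned Fars2 (-0.011).

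Without 1 sample at a time, the count of all genes called ranged from 149 to 1620, that of synthetase genes called higher from 1 to 4 and lower from 0 to 1. Without preleukemic replicates 1, 2, 3 and 4 it was 932, 443, 271 and 149 genes, with Vars the 1 synthetase gene called each time. Genes whose direction turned ranged from -0.055 to 0.070 (Lars), -0.0094 to 0.14 (Mars), -0.088 to 0.22 (Cars), -0.075 to 0.26 (Sars), -0.051 to 0.16 (Yars), -0.033 to 0.20 (Nars2) and -0.043 to 0.055 (Yars2).

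With the replicate block (the replicate number as a block), 0 genes were called in limma, 0 synthetase genes higher and 0 lower. Preleukemic replicate 4 is alone in its block, so the fitted changes are those without that sample. The block also leaves few residual degrees of freedom, so the lack of calls is not a separate check. At an unadjusted p under 0.05 there were 2429 genes (23.0%) and 3 synthetase genes (7.89%), and Yars2 was at -0.043. Deviations of same-numbered samples correlated at 0.03, 0.05 and -0.09, and samples did not all correlate best with their own number. The deviations were taken within groups of 3 and 4 samples. They cannot tell whether same-numbered samples share more than a number. The cause of these differences was not tested. At 13.7 to 16.4 M fragments, low genes such as Ears2 rest on few fragments.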
